A study of Homo sapiens with 24 samples.

Results

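RBM5 and 9 related RNA-binding splicing regulators (RBM6, RBM10, RBM39, RBM25, RBM3, RBM4, TRA2A, TRA2B and TIA1) were examined as targets of splicing themselves, in human HCT116 colorectal carcinoma cells exposed to the SF3b modulator E7107. The members are the rows of the deposited splicing files that lie on the strand and within the span of each gene in the GRCh37 annotation, 2096 of the 1823643 usable rows. Of these, 672 are exon-intron boundary rows, which report reads left unspliced at a splice site, and 1424 are spliced junctions. The cells overexpressed either wild-type (WT) PHF5A or its Y36C mutant, PHF5A being a subunit of the SF3b complex that recognises the branch point of introns. Each genotype received the solvent DMSO or E7107, a derivative of the natural product pladienolide that binds SF3b, for 6 h, which gave 4 groups of 6 samples. Where 4 values follow each other, those of WT cells precede those of Y36C cells, with DMSO before E7107 in each. The labels name no dose, and the study's methods name more than 1. The study's results describe sequencing of both lines at the lower dose, but no label ties that dose to these samples. The study's methods describe lentiviral transgenes and drug-selected cells, 1 engineered line per genotype, so that genotype and line cannot be told apart. Each value is a percent spliced in (PSI), the percentage of reads at a splice site that a junction or boundary accounts for, so all values at a site sum to 100.

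The proteins encoded by these genes act on the choices that the spliceosome makes. RBM5, RBM6 and RBM10 are paralogs that bind pre-mRNA around alternative exons, and RBM5 is a component of early spliceosomal complexes. RBM39 resembles the large U2AF subunit, which reads the polypyrimidine tract, while RBM25 and TIA1 assist U1 at 5′ splice sites, and TRA2A and TRA2B bind purine-rich exonic enhancers. RBM3 is a cold-inducible RNA-binding protein and RBM4 controls both alternative splicing and translation. Genes of this kind often carry poison exons, whose inclusion introduces a premature stop codon and sends the mRNA to nonsense-mediated decay.

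The exons and the intron on which the results turn are given first, from the GRCh37 reference, because the skipping and retention values below refer to them. In each exon line the exon is in capitals, between the last 25 bases of the intron before it and the first 6 bases of the intron after it.
RBM5 exon 6, chr3:50137940-50138044, plus strand: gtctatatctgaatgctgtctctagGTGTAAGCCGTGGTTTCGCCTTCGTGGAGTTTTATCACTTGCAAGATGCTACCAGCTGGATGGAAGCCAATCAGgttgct
RBM6 exon 6, chr3:50036848-50036952, plus strand: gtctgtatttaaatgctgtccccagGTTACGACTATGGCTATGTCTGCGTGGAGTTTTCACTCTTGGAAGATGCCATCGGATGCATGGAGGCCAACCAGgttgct
RBM10 exon 6, chrX:47034393-47034497, plus strand: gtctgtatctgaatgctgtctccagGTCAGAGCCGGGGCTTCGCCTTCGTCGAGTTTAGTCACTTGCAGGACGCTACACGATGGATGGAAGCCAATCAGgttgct
RBM5 exon 8, chr3:50141656-50141747, plus strand: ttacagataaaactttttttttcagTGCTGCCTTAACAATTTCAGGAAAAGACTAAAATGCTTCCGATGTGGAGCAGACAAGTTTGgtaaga
RBM5 exon 16, chr3:50147787-50147902, plus strand: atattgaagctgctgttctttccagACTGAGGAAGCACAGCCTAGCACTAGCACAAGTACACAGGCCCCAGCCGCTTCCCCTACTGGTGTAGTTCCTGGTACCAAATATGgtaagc
RBM39 exon 5, chr20:34317378-34317474, minus strand: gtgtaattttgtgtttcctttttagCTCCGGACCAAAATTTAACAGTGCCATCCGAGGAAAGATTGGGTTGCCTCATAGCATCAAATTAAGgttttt
TIA1 exon 5, chr2:70456185-70456248, minus strand: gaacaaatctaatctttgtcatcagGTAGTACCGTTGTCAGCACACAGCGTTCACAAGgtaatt
RBM5 intron 23, with 3 exon bases in capitals at each end, chr3:50154602-50154685, plus strand: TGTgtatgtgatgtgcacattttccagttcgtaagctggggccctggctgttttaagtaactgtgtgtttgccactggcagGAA
All of these exons are fully coding in the canonical transcript of the annotation, whose exon numbers are used throughout. RBM5 exons 6, 8 and 16 are 74, 61 and 85 nucleotides long, none of them a multiple of 3, so that leaving out any one of them alone shifts the reading frame. RBM39 exon 5 has 66 nucleotides and TIA1 exon 5 has 33, both multiples of 3. Exon 6 is 74 nucleotides long in all 3 paralogs, and 61 of its bases are identical between RBM5 and RBM10, 51 between RBM5 and RBM6 and 48 between RBM6 and RBM10.

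Splice sites with reads had a median number of 337968.5 in WT DMSO and 282785.5 in WT E7107 samples, and of 336782 and 330507 in the corresponding Y36C groups. Read counts are not in the files, so the depth behind each PSI is unknown and no counting interval can be given. Among the members, sites with reads fell from a median of 20 in WT DMSO to 13 in WT E7107 for RBM4, from 54 to 46 for RBM6 and from 54 to 51 for RBM5. Fewer cells, less RNA per cell and fewer reads cannot be told apart here. The epithelial genes EPCAM, CDH1, KRT8, KRT18 and KRT19 had reads at 32.81 to 74.42% of their listed sites, whereas PTPRC, CD3E, COL1A2 and MYH7 had no listed site and ALB had 1 listed site without reads. The 6 samples of a group are separate samples by label, with no word on separate cultures, so p-values measure the spread between these samples. RBM5 lies at chr3:50126352-50156454 and overlaps RBM6 (chr3:49977440-50137478) on the same strand, and 51 rows inside both spans were counted under RBM5. Strand information in the libraries is not stated, so reads of RBM5-AS1 or of other antisense genes cannot be separated from those of their partners.

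Retention was first summarised per gene as the mean boundary PSI over its annotated introns. That mean includes alternative splice sites inside exons of other isoforms, where boundary reads need not be retained introns. In WT DMSO, the acceptor of chr3:185636224-185637224 in TRA2B averaged 98.0% and that of chrX:48434056-48434202 in RBM3 averaged 71.4%. The gene means there were 10.8 and 12.5%, whereas canonical introns reached at most 4.93 and 5.07%. In WT cells, E7107 raised retention in 8 of the 10 genes and lowered it in 1 (TIA1), against 71.6% of 10079 protein-coding genes higher and 7.38% lower. In Y36C cells it raised retention in 6 members and lowered it in RBM25, against 46.5% and 0.982% of all genes. These member shares lie near the shares of all genes. The median change over the members, on the natural log odds scale, was 1.70 in WT cells and 0.19 in Y36C cells, and over all genes it was 0.99 and 0.23. The change differed between genotypes in 9 of the 10 members, smaller in Y36C in 8 and larger in TIA1, against 60.5% of all genes lower and 13.1% higher in that test. The comparisons share samples, so they are not independent.

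**Figure D1:**
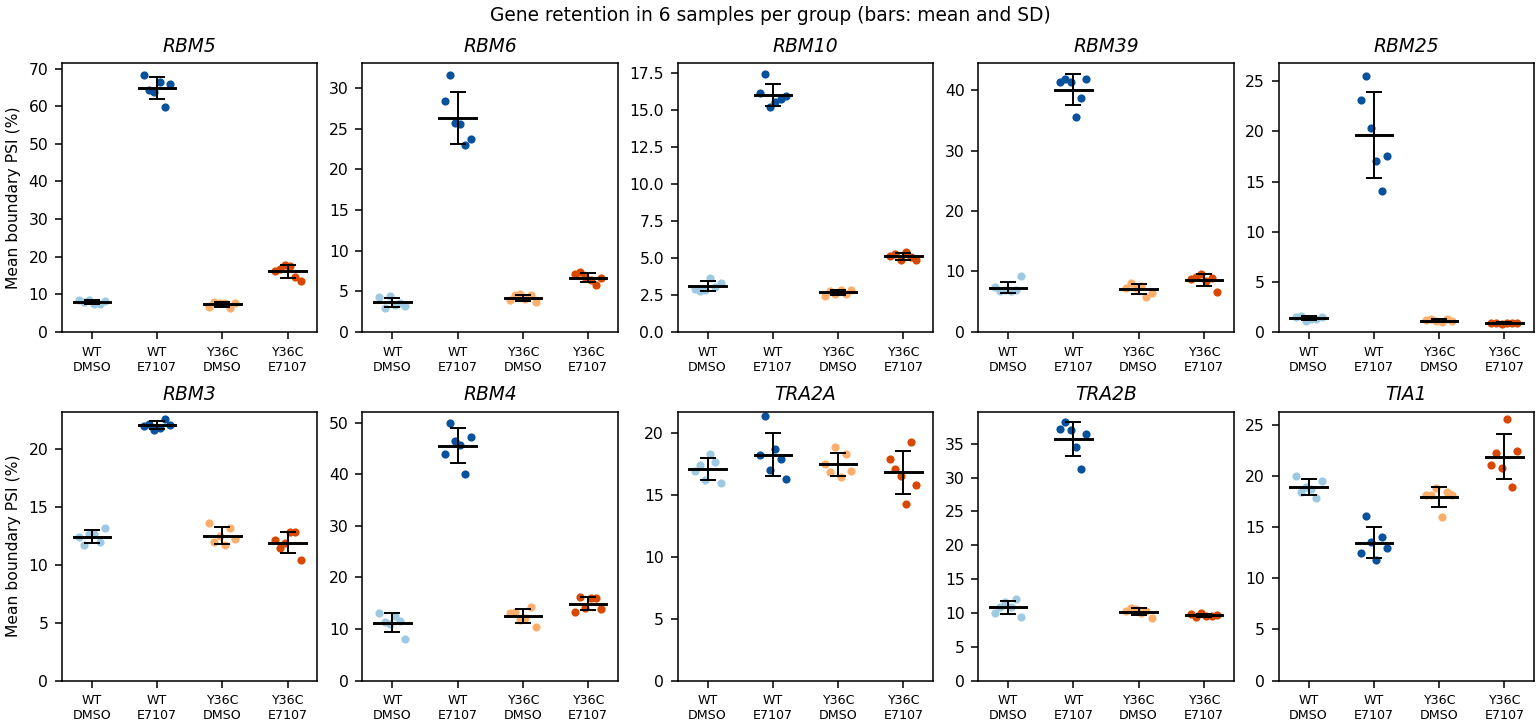
Mean boundary PSI per gene (percent, y axis from 0, own scale in each panel) in the 6 samples of each group, with points for samples and bars for the mean and SD. The WT E7107 samples lie above all other groups in every panel except TRA2A, where the groups overlap, and TIA1, where they lie below the other groups but for a narrow overlap with Y36C DMSO (highest 16.1 against lowest 15.997%).

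RBM5, a regulator of apoptotic splicing long studied as a candidate tumour suppressor, had the largest retention of the 10 genes under E7107 in WT cells. Its mean boundary PSI was 7.44 to 8.45% in WT DMSO samples (median 8.07) and 59.9 to 68.3% in WT E7107 samples (median 65.1). In Y36C cells it was 6.39 to 7.85% under DMSO (median 7.65) and 13.5 to 17.8% under E7107 (median 16.5). The treated samples lay apart from their controls in both genotypes, and the Y36C E7107 samples stayed far below the WT E7107 samples. The change was 2.94 ± 0.059 (SE) on the log odds scale in WT cells (limma, adjusted p = 3.2e-13) and 0.81 ± 0.061 in Y36C cells (adjusted p = 8.1e-07). The difference between genotypes was -2.12 ± 0.084 (adjusted p = 2.9e-16). Of all genes, 88.4% changed less than RBM5 in WT cells and 94.6% changed less in Y36C cells.

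All 24 introns of the canonical RBM5 transcript gained boundary reads in WT E7107 samples, with no overlap between the 6 treated and the 6 control samples in any of them. The rise ran from 35.7 to 74.6 percentage points (median 59.1), and 21 of the 24 introns exceeded 50% retention. The share of introns without overlap over all genes was not computed, and 70.9% of all boundary rows tested were higher in WT cells (limma). Intron 15 (690 nucleotides), which had the largest rise among introns tested in every fit, went from 7.73 to 12.02% in WT DMSO samples to 69.0 to 88.0% in WT E7107 samples. The short intron 23 (78 nucleotides, printed above) went from 16.7 to 25.4% to 79.0 to 90.3%. Even introns that were spliced almost to completion in controls were retained, as intron 12 moved from a mean of 0.501 to 64.1% and intron 21 from 0.509 to 55.4%. The smallest level reached was 39.2% in the last intron, from 3.47% in controls.

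In Y36C cells the RBM5 introns moved unequally. The rise had a median of 6.68 points and a range of 0.021 to 24.97 points, every treated sample lay above every control in 9 of the 24 introns, and 9 introns exceeded 20% under E7107. Here too no share over all introns was computed, and 27.5% of all boundary rows tested were higher in Y36C cells (limma). Introns 12, 18 and 21 stayed at means of 1.201, 0.780 and 0.930% in Y36C E7107 samples. By contrast, intron 23 went from 10.9 to 22.2% in Y36C DMSO samples to 31.7 to 44.8% in Y36C E7107 samples, with no overlap. Intron 17 rose from a mean of 24.98 to 39.7%, intron 4 from 4.69 to 21.4% and intron 9 from 4.06 to 14.2%. The 7 introns retained above 10% in WT DMSO samples (introns 5, 6, 7, 8, 16, 17 and 23) were among the 8 most retained in treated Y36C cells. Over the 24 introns, the rise in Y36C cells had a Spearman rho of 0.86 with the level in WT DMSO samples, -0.029 with intron length and -0.26 with intron GC content, as a description over introns that share gene and libraries. For the rise in WT cells the rho was -0.31 with length and 0.15 with GC content. In the other members where it was computed, the rho of the Y36C rise with the WT DMSO level ran from -0.61 (TRA2A) to 0.73 (RBM6). Of the RBM5 introns high in controls, introns 5, 6, 7, 8 and 16 flank skipped exons. Skipping reads are missing from their boundary totals, as described below, and the rho of 0.86 was not corrected for that.

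**Figure D2:**
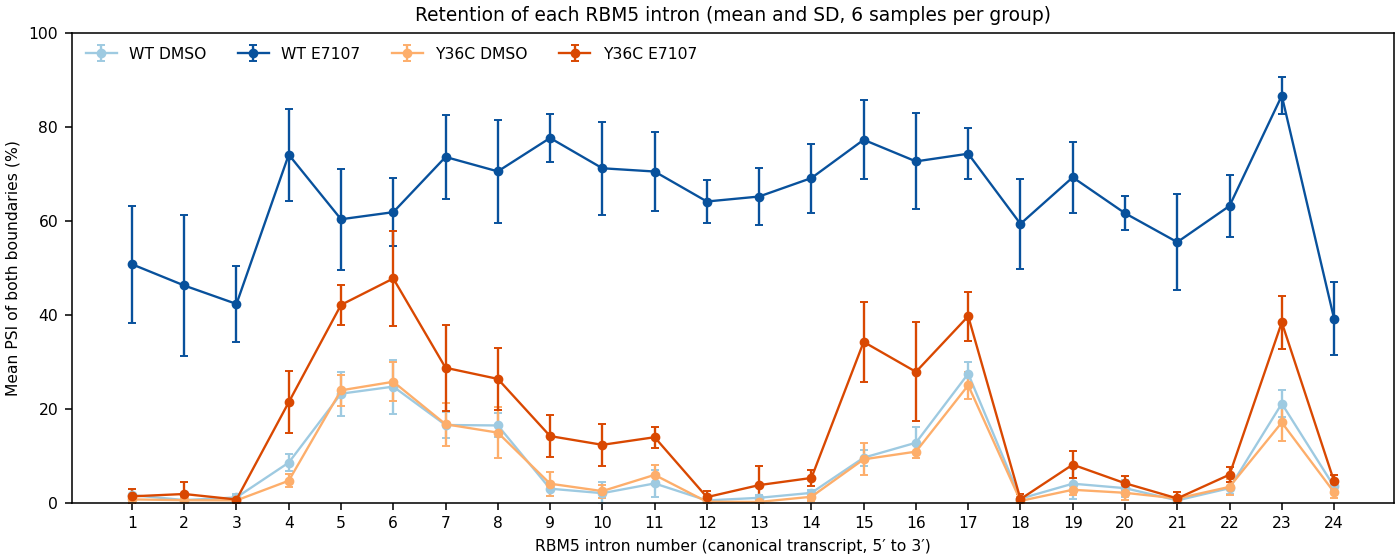
Mean PSI of both boundaries (percent) for each of the 24 RBM5 introns in transcript order, as the mean and SD of 6 samples per group. WT E7107 lies above the other groups at every intron, and the Y36C E7107 mean rises above those of the DMSO groups mainly at introns 4 to 11, 15 to 17 and 23. Single samples overlap at some of these, as every Y36C E7107 sample lay above every Y36C DMSO sample in 9 of the 24 introns.

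Part of the Y36C rise sat at the ends of 3 exons that were skipped. A skipping junction shares no splice site with the exon it leaves out, so its reads are missing from the total at that exon's own ends. At the 6 boundaries flanking exons 6, 8 and 16, chosen after the values were seen, the mean PSI was 18.0 ± 1.70% (SD, n = 6) in Y36C DMSO and 46.7 ± 7.66% in Y36C E7107 samples. The acceptor of exon 16 went from 11.9 to 52.5%, the acceptor of exon 8 from 16.1 to 42.6% and the donor of exon 6 from 27.3 to 55.2%. Over the other 42 boundaries, the mean was 5.81 ± 0.569% and 11.7 ± 1.15%, a rise of 5.88 points compared with 8.73 points over all 48. The Y36C samples still did not overlap without those boundaries (exact permutation test, two-sided p = 0.0022, the smallest it can give). In WT cells the same exclusion changed the rise from 56.8 to 56.5 points.

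The reads at the 3′ splice site that follows each of these exons were then divided into skipping, inclusion and retention, which are not independent because they sum to 100 with any other junction of the site. Exon 8 of RBM5 was skipped far more in treated Y36C cells than in any other group. Its skipping junction made up 6.74 to 21.3% of reads in WT DMSO samples and 13.2 to 19.4% in WT E7107 samples, against 6.33 to 13.2% in Y36C DMSO and 52.9 to 75.0% in Y36C E7107 samples. Only the treated Y36C samples stood apart. Skipping rose by 2.77 ± 0.17 log odds in Y36C cells (adjusted p = 1.7e-06) and the rise exceeded that of WT cells by 2.27 ± 0.26 (adjusted p = 1.5e-07). The WT change at this site passed the threshold narrowly (adjusted p = 0.041) and did not pass at the junction's 5′ end, where the means were 13.7 and 15.0% (adjusted p = 0.66), nor under 4 of the alternative settings.

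Inclusion of exon 8 fell to similar levels in both genotypes, from a mean of 72.6 to 18.9% in WT cells and from 75.7 to 21.4% in Y36C cells, with a genotype difference of 0.02 ± 0.36 log odds (adjusted p = 0.98). What replaced it was different. Retention of intron 8 at this site was 48.4 to 72.2% in WT E7107 samples but 3.70 to 18.0% in Y36C E7107 samples, where the DMSO samples had 5.06 to 25%. The genotype difference in retention was -2.34 ± 0.38 (adjusted p = 1.8e-05).

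Exon 16, named after its values were seen, followed the same division. Skipping was 7.62 to 13.8% in WT DMSO, 4.55 to 17.1% in WT E7107, 5.94 to 16% in Y36C DMSO and 51.3 to 71.1% in Y36C E7107 samples. The treated Y36C samples alone were high, with a genotype difference of 2.47 ± 0.33 log odds (adjusted p = 1.5e-06). Retention of intron 16 at the site averaged 66.8% in WT E7107 and 14.7% in Y36C E7107 samples, against 13.1 and 10.7% in the DMSO groups. Inclusion fell to 18.4% in WT and 23.6% in Y36C cells (genotype difference, adjusted p = 0.47).

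Exon 6 did not divide in this way. Its skipping was higher under E7107 in both genotypes, from 0 to 8.24% in WT DMSO samples to 23.3 to 38.7% in WT E7107 samples, and from 0 to 6.49% to 18.9 to 34.3% in Y36C cells. The row entered each of these tests through the treated samples alone, since some control samples had 0%, so no p is given for the 2 changes of 2.34 ± 0.39 and 2.40 ± 0.31 log odds. The difference between them was 0.07 ± 0.51 (adjusted p = 0.93), an error wide enough to leave a sizeable difference undetected. Retention of intron 6 at the site rose as well, from a mean of 24.3 to 51.0% in WT cells and from 24.2 to 40.2% in Y36C cells. Inclusion fell from 70.1 to 15.7% in WT and from 73.1 to 34.8% in Y36C cells, more in WT (adjusted p = 0.026). A further RBM5 junction that joins exon 18 to exon 21 (chr3:50150978-50152860) and so leaves out exons 19 and 20 had 0% in all 12 DMSO samples, 15.4 to 29.8% in WT E7107 and 0 to 2.17% in Y36C E7107 samples at its 5′ end.

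**Figure D3:**
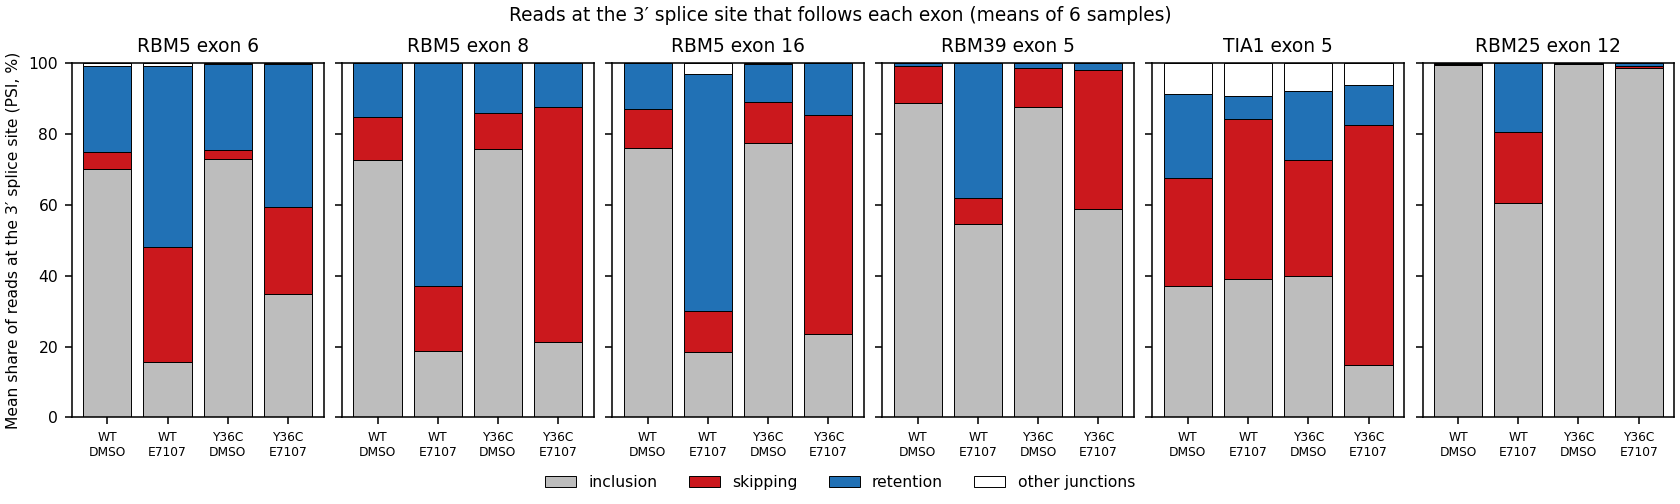
Mean share of reads (PSI, percent, stacked to 100) at the 3′ splice site after 6 exons, split into inclusion, skipping, retention and other junctions for each group of 6 samples. In RBM5 exons 8 and 16 the lost inclusion appears as retention in WT E7107 (62.9 and 66.8%) and as skipping in Y36C E7107 (66.1 and 61.7%).

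RBM6, the neighbour and paralog of RBM5, had a mean boundary PSI of 2.91 to 4.40% in WT DMSO and 22.9 to 31.6% in WT E7107 samples. In Y36C cells the range was 3.64 to 4.61% under DMSO and 5.75 to 7.38% under E7107. Retention thus rose in both genotypes, by 2.05 ± 0.085 log odds in WT (adjusted p = 1.9e-10) and 0.41 ± 0.049 in Y36C cells (adjusted p = 2.6e-05). Intron 9 showed the largest WT rise, from a mean of 1.90 to 54.9%, and reached 4.93% in Y36C E7107 samples. Intron 2 was already at 21.0% in WT DMSO samples and intron 14 at 12.3%, and they averaged 41.4 and 32.2% in WT E7107 and 30.4 and 21.0% in Y36C E7107 samples. Across its 20 introns the WT rise was smaller in longer introns (rho -0.70, a description over introns of 1 gene).

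RBM10, the X-linked paralog whose loss is known in lung adenocarcinoma, had 2.79 to 3.64% in WT DMSO, 15.2 to 17.4% in WT E7107, 2.45 to 2.84% in Y36C DMSO and 4.86 to 5.43% in Y36C E7107 samples. No treated sample overlapped its controls. The changes were 1.57 ± 0.048 (adjusted p = 1.1e-11) and 0.53 ± 0.031 (adjusted p = 1.4e-07). All 23 of its introns gained boundary reads in WT cells, by 2.24 to 19.7 points. Intron 23 (86 nucleotides) averaged 1.86, 21.6, 0.947 and 6.25% in the 4 groups, and intron 10 averaged 8.09, 24.3, 5.92 and 16.6%.

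Because exons 6 and 8 have the same length in the 3 paralogs, their skipping was set side by side, a choice made after the RBM5 values were seen. The junction that skips RBM6 exon 6 alone averaged 9.37, 24.7, 11.1 and 22.6% in the 4 groups. In Y36C cells it rose (0.82 ± 0.14, adjusted p = 0.0015), whereas in WT E7107 samples it ranged from 0 to 41.9% and did not pass the test (adjusted p = 0.37). Exon 6 is also left out by a junction at the same site that skips exons 3 to 6. That junction averaged 19.6, 31.1, 26.3 and 33.4%. It rose in WT cells (limma, 0.59 ± 0.22, adjusted p = 0.039) and did not pass in Y36C cells (adjusted p = 0.095). Inclusion of RBM6 exon 6 fell from a mean of 63.9 to 33.2% in WT cells (limma, adjusted p = 7.1e-05). In Y36C cells it fell from 52.7 to 35.6% (adjusted p = 0.0042), and the genotype difference passed narrowly (0.58 ± 0.23, adjusted p = 0.046). RBM10 exon 6, which shares 82.4% of its bases with that of RBM5, was skipped at a mean of 0.671 to 0.826% in 3 groups and at 2.38% in Y36C E7107 samples, too low for the test. Its inclusion averaged 98.0% in WT DMSO and 87.5% in WT E7107 samples, with retention at 1.35 and 11.8%. No test was made between genes.

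Exon 8 differed too. RBM6 exon 8 was skipped at means of 1.06, 3.11, 0.255 and 1.74%, and RBM10 had no junction listed that skips its exon 8. Inclusion in Y36C E7107 samples averaged 96.7% for RBM6 and 97.1% for RBM10, compared with 21.4% for RBM5. Between RBM5 and its paralogs, 19 (RBM6) and 35 (RBM10) of the 61 bases are identical.

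**Figure D4:**
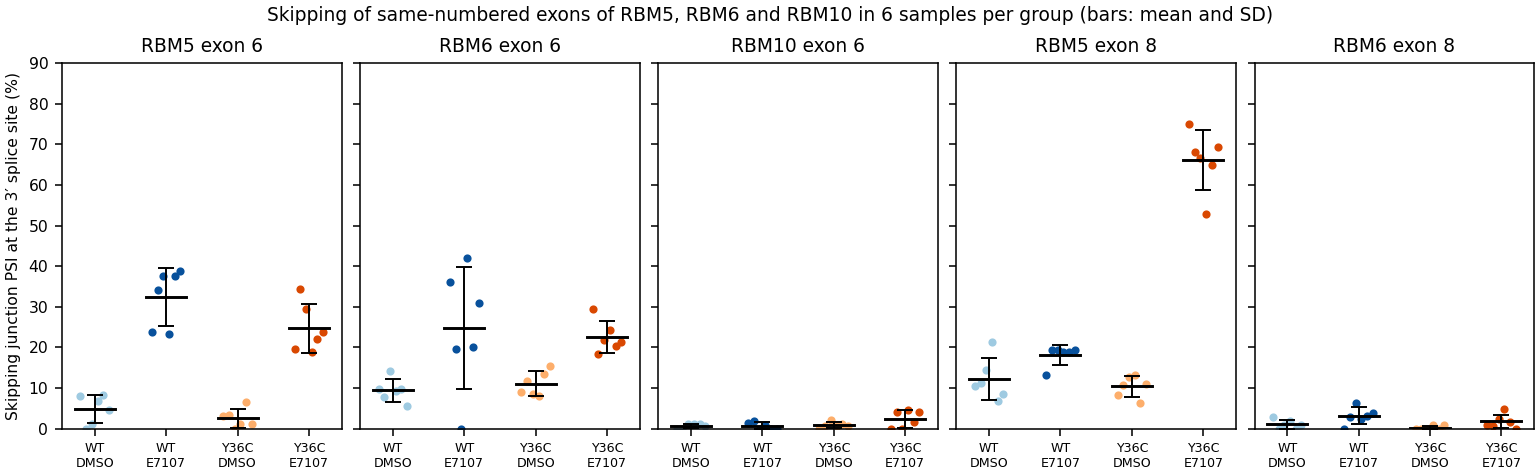
PSI of the skipping junction (percent, common axis from 0) at the 3′ splice site for exon 6 of RBM5, RBM6 and RBM10 and exon 8 of RBM5 and RBM6, with points for the 6 samples of each group and bars for mean and SD. Exon 8 of RBM5 reaches 66.1% in Y36C E7107 while that of RBM6 averages 1.74%.

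RBM39, the U2AF-like factor that aryl sulfonamide drugs degrade, had a mean boundary PSI of 6.70 to 9.18% in WT DMSO and 35.5 to 41.9% in WT E7107 samples. In Y36C cells the values were 5.85 to 8.06% and 6.67 to 9.61%, which overlap. The WT change was 2.03 ± 0.067 (adjusted p = 2.1e-11), and the Y36C change of 0.19 ± 0.068 passed the threshold only narrowly (adjusted p = 0.041). Over the canonical introns alone, an alternative added after the values were seen, the limma changes were 2.69 (adjusted p = 3.6e-13) and 0.23 (adjusted p = 2.8e-04). Intron 4 had the largest WT rise, from 1.72 to 4.74% to 55.8 to 72.6%, and went from 2.98 to 4.73% to 10.5 to 13.6% in Y36C cells. Intron 2 fell in Y36C cells from a mean of 8.19 to 2.69%, while it rose in WT cells from 9.22 to 45.3%.

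Skipping of RBM39 exon 5 moved in opposite directions in the 2 genotypes. It was 8.88 to 11.4% in WT DMSO, 5.26 to 9.43% in WT E7107, 9.04 to 12.9% in Y36C DMSO and 32.5 to 42.5% in Y36C E7107 samples. It fell in WT cells by 0.34 ± 0.11 log odds (adjusted p = 0.017, but 0.068 with a replicate block), rose in Y36C cells by 1.56 ± 0.08 (adjusted p = 7.2e-07), and the genotype difference was 1.90 ± 0.14 (adjusted p = 2.5e-10). Retention of intron 5 at the site averaged 38.0% in WT E7107 and 1.85% in Y36C E7107 samples, while inclusion fell to 54.6 and 58.9% (genotype difference, adjusted p = 0.23). These values are from the 3′ end of the junction. At its 5′ end skipping averaged 9.82, 1.40, 10.4 and 30.6% in the 4 groups. The WT fall there was 1.60 ± 0.08 log odds (limma, adjusted p = 1.2e-08). Boundary reads at that 5′ splice site averaged 5.79, 83.9, 6.91 and 19.5%. WT cells instead gained longer junctions. The junction leaving out exons 5 and 6 averaged 0.092, 15.2, 0.241 and 0.884% in the 4 groups at its 3′ end. The junction leaving out exons 12 and 13 averaged 0.102, 24.7, 0.052 and 0.249% at its 5′ end and 0.105, 19.5, 0.049 and 0.246% at its 3′ end.

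RBM25, which works with U1-associated proteins, had low retention in controls, 1.08 to 1.60% in WT DMSO and 0.962 to 1.26% in Y36C DMSO samples. It reached 14.1 to 25.6% in WT E7107 samples, whereas it was 0.751 to 0.934% in Y36C E7107 samples. The Y36C samples thus moved slightly below their controls (-0.12 ± 0.034, adjusted p = 0.010), a call that was lost with untransformed PSI and reversed in sign with the median over boundaries. Intron 7 averaged 0.13% in WT DMSO and 41.8% in WT E7107 samples, and intron 16 averaged 0.35 and 39.6%. In Y36C E7107 samples these introns averaged 0.16 and 0.37%.

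Skipping of RBM25 exons was mostly seen in treated WT cells. Exon 12 (90 nucleotides, chr14:73572904-73572993) was skipped at 11.3 to 32.1% in WT E7107 samples, at 0 to 0.348% in WT DMSO and at 0 to 0.952% in Y36C E7107 samples. Exon 8 (54 nucleotides) had no skipping in any DMSO sample, 5.45 to 14.5% in WT E7107 and 2.31 to 3.42% in Y36C E7107 samples, with a genotype difference of -1.07 ± 0.16 log odds. The row entered the test through the treated samples alone, so no p is given. Exon 3 averaged 0.174, 12, 0.065 and 0.492% in the 4 groups.

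TRA2B, an activator of exon inclusion, showed retention of 9.46 to 11.98% in WT DMSO, 31.2 to 38.2% in WT E7107, 9.24 to 10.7% in Y36C DMSO and 9.37 to 9.96% in Y36C E7107 samples. The WT samples separated (1.46 ± 0.062, adjusted p = 2.3e-10) and the Y36C samples did not (-0.06 ± 0.031, adjusted p = 0.17). Its 8 canonical introns rose by 16.4 to 31.1 points in WT cells and changed by -0.778 to 0.609 points in Y36C cells. Exon 2 skipping rose from 2.61 to 5.49% in Y36C cells (adjusted p = 1.6e-04), and the WT means were 3.00 and 3.55% (adjusted p = 0.42).

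TRA2A, the paralog of TRA2B, showed no such rise. Its mean boundary PSI was 15.9 to 18.2%, 16.3 to 21.3%, 16.4 to 18.8% and 14.3 to 19.3% in the 4 groups, and all groups overlapped (WT adjusted p = 0.24, Y36C adjusted p = 0.54, genotype difference adjusted p = 0.17). That mean contains alternative introns at the start of the gene that were well retained in controls, such as chr7:23561460-23570799, which went from a mean of 38.1 to 27.0% in WT cells. Over the canonical introns alone, an alternative added after the values were seen, TRA2A rose by 0.57 in WT cells (adjusted p = 3.0e-05) and fell by 0.36 in Y36C cells (adjusted p = 7.9e-04). Even so, its canonical introns changed by -3.44 to 6.74 points in WT cells, less than those of TRA2B.

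TIA1, which binds U-rich sequence next to weak 5′ splice sites, was the member that moved against the others. Its mean boundary PSI was 17.9 to 20.04% in WT DMSO and 11.8 to 16.1% in WT E7107 samples, and 15.997 to 18.8% in Y36C DMSO and 19.0 to 25.6% in Y36C E7107 samples. It fell by 0.39 ± 0.057 in WT cells (adjusted p = 4.2e-05), rose by 0.23 ± 0.058 in Y36C cells (adjusted p = 0.0058) and differed between genotypes by 0.62 ± 0.080 (adjusted p = 3.0e-07). With the median in place of the mean over boundaries, the WT change was -0.30 and no longer passed (adjusted p = 0.11).

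The TIA1 fall was largest in introns 4, 5, 6 and 8, the 4 canonical introns above 10% in WT DMSO samples. Intron 5 went from 19.5 to 26.8% to 4.79 to 10.8% in WT cells, and intron 8 from 10.6 to 17.0% to 3.03 to 7.51%. In Y36C cells intron 8 went the other way, from 13.5 to 16.9% to 20.9 to 33.7%. Intron 7 (7559 nucleotides) rose in both, with means of 8.60 and 18.2% in WT and 10.3 and 24.7% in Y36C cells. The change was higher in Y36C than in WT cells in 9 of the 12 canonical introns, and no intron of the other members was among them, since this held for 9 of 137 over all members.

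TIA1 exon 5, whose use distinguishes the known TIA1 isoforms, was skipped more under E7107 in both genotypes. Skipping was 26.3 to 38.5% in WT DMSO, 35.6 to 50% in WT E7107, 26.8 to 38.1% in Y36C DMSO and 62.3 to 74.1% in Y36C E7107 samples. The rise was 0.63 ± 0.13 in WT (adjusted p = 0.0015) and 1.44 ± 0.12 in Y36C cells (adjusted p = 1.3e-05), larger in Y36C cells by 0.81 ± 0.19 (adjusted p = 9.1e-04). Inclusion averaged 37.1 and 39.0% in WT cells (adjusted p = 0.66) and fell from 39.9 to 14.9% in Y36C cells (adjusted p = 1.7e-04). In WT cells the gain in skipping was accompanied by a fall in retention at this site, from 23.9 to 6.36%.

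Of the 8 members that rose in WT cells, RBM3 rose least. Its retention was 11.7 to 13.2% in WT DMSO and 21.7 to 22.6% in WT E7107 samples, and in Y36C cells 11.7 to 13.6% and 10.5 to 12.8%. The WT change was 0.66 ± 0.035 (adjusted p = 2.5e-09), and the Y36C change was -0.05 ± 0.045 (adjusted p = 0.36), which became a rise of 0.29 (adjusted p = 1.7e-04) over the canonical introns alone. Exon 3 skipping stayed low but rose more in Y36C cells, with means of 0.517, 1.01, 0.536 and 3.13% in the 4 groups (genotype difference 0.73 ± 0.14, adjusted p = 9.8e-05). RBM4 went from 7.98 to 13.1% to 40.1 to 50.04% in WT cells (1.83 ± 0.090, adjusted p = 9.8e-10) and from 10.5 to 14.3% to 13.3 to 16.3% in Y36C cells (0.19 ± 0.062, adjusted p = 0.024). It rests on 8 boundaries, and it overlaps the readthrough gene RBM14-RBM4.

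The gene values rest on 137 canonical introns. In WT cells every treated sample lay above every control in 117 of them and below every control in 5 (4 of TIA1 and 1 of TRA2A), and in Y36C cells above in 27 and below in 3 (1 each of RBM39, RBM25 and TRA2A). The share of such introns over all genes was not computed, so these counts do not set the members apart. By the limma test, 70.9% of all boundary rows tested were higher in WT cells and 27.5% in Y36C cells. The median rise of the 137 introns was 18.5 points in WT cells, whereas in Y36C cells it was 0.596 points. In treated WT cells 24 introns exceeded 50%, of which 21 were in RBM5. In treated Y36C cells 14 exceeded 20%, of which 9 were in RBM5, 3 in TIA1 and 2 in RBM6.

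**Figure D5:**
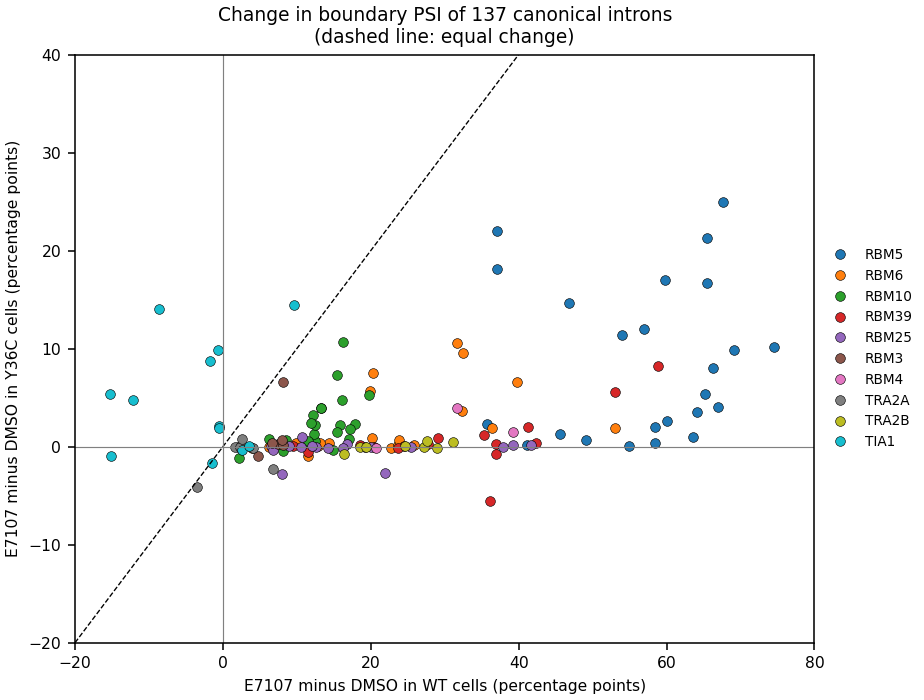
Change in mean boundary PSI (E7107 minus DMSO, percentage points) of 137 canonical introns in WT cells (x axis) and Y36C cells (y axis), with 1 point per intron coloured by gene and a dashed line of equal change. RBM5 introns lie furthest right, between 35.7 and 74.6 points, and the 9 points above the line belong to TIA1.

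Over the single rows of the 10 genes, WT cells had 244 boundary rows higher and 10 lower of 275 tested, against 70.9% and 5.78% of all boundary rows tested. Among spliced rows, 59 were higher and 280 lower of 420, against 7.32% and 39.0%. In Y36C cells 61 boundary rows were higher and 11 lower of 180 (all rows 27.5% and 1.43%), and 49 spliced rows were higher and 94 lower of 409 (all rows 7.06% and 14.5%). RBM5 contributed 48 of the higher boundary rows in WT cells and 20 in Y36C cells. A row entered a test only if it was used in every sample of at least 1 group, so the rows tested are not all member rows, and a row that entered through its high group alone had to differ. The median change of boundary rows, in log odds, was 2.38 for members and 1.64 for all rows in WT cells, and 0.37 for both in Y36C cells.

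Junctions that leave out a canonical exon were counted within those spliced rows. In WT cells 44 of 72 such rows were higher and 7 lower, against 33.9% and 13.8% of such rows over all protein-coding genes. In Y36C cells 32 of 53 were higher and 2 lower, against 51.9% and 1.40%. The higher rows belonged to 23 and 17 junctions, and they include rows that entered through the treated group alone. In the test of the genotype difference 20 of 81 rows were higher in Y36C and 35 were lower, against 35.1% and 16.1%. RBM39 held 8 and RBM5 held 6 of the WT junctions, and RBM39 held 5 and RBM5 held 3 of those in Y36C cells. RBM10 and RBM4 had no such junction that rose in either genotype, but only 1 of RBM10 and 3 of RBM4 could be tested in each.

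The annotation lists 20 exons in 8 of the genes that occur only in nonsense-mediated decay transcripts (11) or other non-coding ones, called poison exons here, and 18 have a junction in the files. Of 15 inclusion rows tested in WT cells 10 were lower and 1 higher, and of 14 in Y36C cells 4 were lower and none higher, with a junction that 2 overlapping RBM39 exons share counted under each. Inclusion rows of this kind over all protein-coding genes were lower in 42.2% and higher in 2.73% of cases in WT cells, and lower in 17.9% and higher in 9.32% in Y36C cells. A 73-nucleotide exon in RBM39 intron 2 (chr20:34328447-34328519) had 5.79 to 10% in WT DMSO, 1.08 to 3.23% in WT E7107, 5.76 to 8.86% in Y36C DMSO and 0.630 to 2.13% in Y36C E7107 samples, as a share of reads at the donor of the exon before it. Its use fell in both genotypes (adjusted p = 9.6e-05 and 1.0e-05), with no overlap of treated and control samples. Boundary reads at that donor averaged 5.26, 43.5, 4.44 and 1.98% in the 4 groups, so in WT cells the fall came with more retention. The exception was a 155-nucleotide exon in the same intron (chr20:34327315-34327469), which averaged 0.251% in WT DMSO and 4.14% in WT E7107 samples at the donor before it, where it entered the test through the treated samples alone, and 0.316 and 0.0644% at the acceptor after it.

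The 276-nucleotide poison exon in TRA2B intron 1 (chr3:185649365-185649640), through which the protein is known to limit its own level, differed by genotype. Its acceptor, with the first 3 exon bases in capitals and on the minus strand at chr3:185649638-185649660, is:
TRA2B poison exon acceptor: cctgttctttttctattaagGTT
Use of the junction between this exon and exon 2 was 3.62 to 6.91% in WT DMSO and 0.272 to 1.98% in WT E7107 samples, and 4.05 to 6.81% and 2.92 to 5.39% in Y36C cells. It fell in WT cells (adjusted p = 5.3e-05), did not pass in Y36C cells (adjusted p = 0.34), and the difference passed (adjusted p = 3.0e-04). At the junction from exon 1 into the poison exon the WT means were 6.77 and 4.57% (adjusted p = 0.011), and the genotype difference did not pass (adjusted p = 0.19). Unspliced reads share these sites. Boundary PSI averaged 6.05, 24.1, 4.80 and 4.91% in the 4 groups at the acceptor of exon 2. At the acceptor of the poison exon it averaged 30.4, 74.3, 23.8 and 13.4%. Less use of the exon and more retention around it were not separated.

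Without the drug few differences between the genotypes passed the test. No member did so in retention between Y36C and WT DMSO samples, against 0.417% of all genes higher and 0.298% lower, and 2 of the 10 had an unadjusted p under 0.05 in limma. None of 173 boundary rows passed (all rows 0.204% higher and 0.165% lower, 24 member rows with an unadjusted p under 0.05), and 1 spliced row was higher and 1 lower of 407 (all rows 0.118% and 0.124%). The higher row was a junction near the start of RBM25 (chr14:73525414-73531679), with means of 79.3 and 100%. The lower row was a TRA2A junction (chr7:23570890-23571407), with 4.53 to 6.36% in WT and 2.38 to 3.74% in Y36C samples.

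Under E7107, 8 of the 10 genes were lower in Y36C than in WT samples and TIA1 was higher, against 64.9% and 14.8% of all genes. Of 274 boundary rows 234 were lower and 13 higher (all rows 62.9% and 11.7%), and of 413 spliced rows 265 were higher and 57 lower (all rows 38.4% and 11.8%). In the test of the genotype difference in drug response, 221 of 274 boundary rows were lower and 14 higher (all rows 54.9% and 8.97%), and 246 of 434 spliced rows were higher and 52 lower (all rows 32.5% and 9.06%).

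A list of 37 other RBM and auxiliary splicing regulators gave the frame for these genes, and 35 could be tested. In WT cells 32 of them rose and none fell, in Y36C cells 14 rose and none fell, and the genotype difference was negative in 32 and positive in 1. Of all genes, 71.6% rose and 7.38% fell in WT cells, and 46.5% rose and 0.982% fell in Y36C cells. The genotype difference was negative in 60.5% of all genes and positive in 13.1%. PNN, which encodes the nuclear speckle protein pinin, averaged 0.967 and 52.6% in WT cells and 0.818 and 1.45% in Y36C cells. RBM22, a core spliceosome protein, averaged 2.41 and 53.2% in WT cells and 2.28 and 2.69% in Y36C cells. CIRBP, the cold-inducible relative of RBM3, averaged 28.5 and 30.1% in WT cells (adjusted p = 0.086) and rose from 29.3 to 33.7% in Y36C cells (adjusted p = 9.4e-04). These 3 were named after their values were seen.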

How the data were processed

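Poly(A) RNA was sequenced from 24 HCT116 samples in 4 groups of 6, grouped by the sample titles. Per the methods and the submitters' processing notes, the authors aligned reads to hg19 with STAR (version not given in the sources used here) and deposited, for each junction and each exon-intron boundary, the percent of reads at a splice site (PSI), without counts. Sites whose rows sum to 0 were treated as missing, and 6433 of 1830076 rows per file were left out because they are mitochondrial or carry no strand. Members were placed with GENCODE v44 lifted to GRCh37, the same coordinates as hg19.

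PSI was converted to natural log odds with an offset of 1 percentage point and tested with limma 3.58.1 in R 4.3.3, two-sided, with Benjamini-Hochberg adjustment over all rows or all genes and a threshold of 0.05. Pairs of groups were fitted alone, and the genotype difference in all 24 samples. A row was tested if its site had reads in every compared sample and if the row itself was used (PSI over 0) throughout 1 or more groups. Gene retention was the mean over annotated-intron boundaries with reads in all 24 samples, for genes with at least 2. The fits were tested on simulated data. Python 3.11.15, pandas 2.3.3 and pysam 0.24.0 were used. Depth per sample is unknown. Strandedness is not given in the sources used here.

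Named for each gene were the introns with the largest and smallest WT rise, the skipping junctions with the largest rise in each genotype, the poison exons, introns above 10% in WT DMSO and all RBM5 introns. The members, lists and tests were chosen with earlier results of these data known. Alternatives were an offset of 0.1, untransformed PSI, a replicate block, other filters, a trended robust prior, medians over boundaries and, both added after seeing the data, canonical introns only and, for RBM5, leaving out the ends of its skipped exons.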

Additional observations from a re-analysis of the deposited data

Results flagged for a closer look

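Among 104 groups of 6 samples examined, 5 held a sample far from the others, and chance gives about 1 in 20. The WT DMSO group of RBM39 retention had a highest sample of 9.18% with the next at 7.51%. In the Y36C DMSO group of TIA1 retention the lowest sample was 15.997% and the next 18.1%. The junction skipping RBM5 exon 8 had a lowest WT E7107 sample of 13.2% at its 3′ end, and the next was 18.9%. For the junction skipping RBM6 exon 6, 1 WT E7107 sample had 0% at the 5′ end and the next had 31.6%. The RBM4 intron 3 junction had a highest Y36C E7107 sample of 90.5%, and the next was 87.6%.

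The response to E7107 differed between genotypes in 20 of the 26 items tested with limma, given here as the Y36C change minus the WT change in log odds. The junctions among these items were chosen by their rise in a genotype in the same samples, which favoured a genotype difference in advance. Over all genes, 60.5% were lower and 13.1% higher in this test, and of all exon-skipping rows 16.1% were lower and 35.1% higher. For gene retention the difference was -2.12 in RBM5, -1.63 in RBM6, -1.04 in RBM10, -1.84 in RBM39, -2.47 in RBM25, -0.71 in RBM3, -1.64 in RBM4 and -1.52 in TRA2B, so retention rose less in Y36C cells in all 8 of these genes. TIA1 was the exception, at 0.62. Among skipping junctions, the difference was positive, meaning more in Y36C cells, for RBM5 exon 8 (2.27), RBM39 exon 5 (1.90), TIA1 exon 5 (0.81), RBM3 exon 3 (0.73) and TRA2B exon 2 (0.48). It was negative for RBM39 exons 5 and 6 together (-2.42), RBM25 exon 8 (-1.40) and TRA2B exon 7 (-0.63). The RBM39 and RBM25 rows of these entered the test through treated groups alone, since DMSO samples of both genotypes included 0%. Their place among the items that differed is therefore no separate support. Junctions that leave out only an exon outside the canonical transcript gave 1.80 for RBM25 intron 9, 1.14 for RBM4 intron 3 and -1.43 for TIA1 intron 6.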

How the results depend on the processing

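Of 180 alternative values of the counts, 167 stayed within 1.5 times and 13 moved, and of 586 values of single genes and junctions 549 kept direction and side of the threshold, 27 lost and 8 gained significance and 2 reversed. Boundary rows lower in Y36C cells fell from 11 to 6 with a replicate block, 7 with a filter on the mean over all samples and 6 without a filter. The spliced row higher in Y36C under DMSO went from 1 to 0 with the block, and the lower one from 1 to 0 with the offset of 0.1, the block, the mean filter and the robust prior. Boundary rows with a larger response in Y36C went from 14 to 9 without a filter. The 1 gene lower in WT cells (TIA1) went to 0 with medians over boundaries, and the 1 lower in Y36C cells (RBM25) went to 0 with untransformed PSI and with medians, and to 2 over canonical introns. RBM25 in Y36C cells reversed to 0.020 (adjusted p = 0.57) with medians, and RBM3 to 0.29 (adjusted p = 1.7e-04) over canonical introns. The WT change of RBM5 exon 8 skipping had adjusted p from 0.053 to 0.084 under 4 settings, and WT skipping of RBM6 exon 6 at its 5′ end passed with untransformed PSI (23.7 points, adjusted p = 0.018). The cause was not tested. Same-numbered samples did not deviate together (36 pairs, correlations from -0.0059 to 0.0080), so the numbers give no pairing, and the block lost 7 of 98 single calls. Missing read counts limit all values at sites with few reads.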
